A study of Homo sapiens with 36 samples.

Results

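RNA polymerase I and the factors that build ribosomes were followed as a set of 52 genes in WiT49 cells exposed to low-dose actinomycin D. The genes were chosen by name from a list and found by Ensembl identifier among 58174 annotated genes in the RNA data and 43548 in the footprint data. All 52 were found in both. By role they comprised 12 genes of the polymerase I machinery, 8 proteins of small nucleolar ribonucleoproteins (snoRNPs), 14 assembly factors of the small (40S) subunit, 14 of the large (60S) subunit, and 4 nucleolar proteins with several roles.

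WiT49 is a cell line from an anaplastic Wilms tumor, a childhood kidney cancer. The treated arm grew with 2 nM actinomycin D (actD) and the control arm with dimethyl sulfoxide (DMSO), its solvent, and cells were taken after 6 h, 72 h and 2 weeks. The long schedule held 2 cycles of 7 days, with additive for 3 days and plain medium for 4 days. Total RNA and ribosome footprints, the fragments covered by translating ribosomes, were sequenced, with 3 libraries in each of the 12 groups. The labels name no genetic change, and every library came from this 1 line. The labels of the RNA libraries taken at 2 weeks contradict each other: for each of the 6, title and name state different treatments. Here the name was followed, the sets are written named actd and named dmso, and a difference there is named actd minus named dmso, with no claim about which received the drug. The labels do not say that replicates were separate cultures, so the p-values measure only the spread between these libraries.

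Ribosome production starts in the nucleolus, where RNA polymerase I transcribes the ribosomal DNA into a long precursor. UBTF and the selectivity factor SL1 mark the promoter, and RRN3 brings the polymerase to it. snoRNPs then guide methylation and pseudouridylation of the precursor, and assembly factors fold, cut and package it into the subunits. Actinomycin D intercalates into DNA, and at low dose it is used in the laboratory to block polymerase I in preference to the other polymerases. The measurements here are of the messenger RNAs and footprints of these factors, not of ribosomal RNA.

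RNA libraries held 40221994 to 69240041 counts and footprint libraries 152556 to 1281039. Of these, protein-coding genes took 52.9% to 76.3% in RNA but 2.12% to 40.4% in footprints, so the footprint values of single genes rest on few counts. The fewest, 152556, were in the third DMSO footprint library of 72 h. Values are given as CPM, the counts scaled to a common library size, with TMM factors that adjust the sizes for the makeup of each library. The TMM factors were near 1 in RNA (0.884 to 1.08) but ran from 0.383 to 2.35 in footprints. Levels are compared only within a table. Of the Wilms tumor and nephron progenitor markers, IGF2 lay between 1020 and 2359 CPM, LIN28B between 124 and 430 CPM over all RNA libraries and WT1 between 3.77 and 37.6 CPM, whereas SIX2, PAX2, PAX8, EYA1, SALL1, CITED1 and HOXD11 stayed below 1 CPM. CD3E, ALB and PECAM1, markers of T cells, hepatocytes and endothelium, were at or near 0 CPM, and PTPRC, of leukocytes, reached at most 0.42 CPM. GFAP, of glia, reached at most 0.46 CPM and DES, of muscle, 6.27 to 10.7 CPM.

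A sequence feature that the choice of members did not use was more frequent in their start regions than among all genes. In windows from 250 bases before to 50 bases after each start in RefSeq (GRCh38.p14), the E-box CACGTG, which reads the same on both strands and is the letters bound by MYC and its partners among other factors, was present in 17 of the 43 members in the table (39.5%), against 8.77% of 27305 genes. Counted by start, it was in 33.3% of the members' 54 starts and in 7.26% of all 35116. It was found in 8 of 13 40S assembly factors, 4 of 10 60S factors, 3 of 6 snoRNP proteins and 2 of 4 nucleolar proteins with several roles, and in 0 of 10 genes of the polymerase I machinery. The palindrome TCGCGA showed another distribution, with 8 of 43 members (18.6%, against 3.76% of all genes) and 4 of the 10 polymerase I genes, POLR1B, POLR1C, TAF1B and TAF1D. A match describes the letters in the window and is not a measured binding site. The genes compared were not matched to the members by expression or base composition, and the part of either was not tested.

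Shown first are the 100 bases before the starts of UTP20 (chr12:101280005-101280104, plus strand) and NAT10 (chr11:34105529-34105628, plus strand), 40S factors whose RNA values were among the lowest relative to DMSO, with the E-box in capitals at 10 and 15 bases before the start. Then follow short stretches around the E-boxes of NOP2 (chr12:6568242-6568268, minus strand), MYBBP1A (chr17:4555340-4555369, minus strand) and DDX21 (chr10:68956604-68956633, plus strand), 3 members with lower RNA in actD libraries at 6 h, and of NOP10 (chr15:34343130-34343159, minus strand) and GAR1 (chr4:109815781-109815810, plus strand), 2 snoRNP genes with the same letters and RNA values that overlapped between arms. All are written 5′ to 3′ in the direction of the gene.
UTP20: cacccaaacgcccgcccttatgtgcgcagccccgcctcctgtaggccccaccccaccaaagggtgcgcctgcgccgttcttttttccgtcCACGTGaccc
NAT10: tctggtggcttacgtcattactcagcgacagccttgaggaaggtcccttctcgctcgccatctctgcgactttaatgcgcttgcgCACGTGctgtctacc
NOP2: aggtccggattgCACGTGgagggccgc
MYBBP1A: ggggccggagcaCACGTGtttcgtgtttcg
DDX21: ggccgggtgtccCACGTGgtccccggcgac
NOP10: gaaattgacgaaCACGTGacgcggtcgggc
GAR1: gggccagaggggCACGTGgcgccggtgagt

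Messenger RNA levels of the members differed widely in vehicle-treated cells. At 72 h in DMSO, NPM1, a nucleolar chaperone, led with 1657 ± 165 CPM per kilobase of transcript (SD, n = 3). It has 45 annotated pseudogenes, whose reads the counting could have shared with it. NCL, the nucleolar protein nucleolin, followed with 125 ± 42.7, NOP10, the smallest member of the H/ACA snoRNP, with 120 ± 17.1, and the helicase DDX21 with 84.7 ± 21.3 CPM per kilobase. The ranges of NCL, NOP10 and DDX21 overlapped or met. At the low end, TAF1C, a subunit of the promoter factor SL1, had 2.1 ± 0.727 CPM per kilobase and MYBBP1A, a nucleolar protein that also acts on transcription, 5.01 ± 1.33.

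After 6 h, RNA of the 40S and 60S assembly factors was mostly lower in actD libraries, while RNA of the snoRNP proteins lay on both sides of the DMSO values. Of the 52 members, 38 had a negative log2 fold change (actD minus DMSO), with a median of -0.11, against 47% of the 22669 genes tested and a median of 0.02. In bulk RNA, fewer cells of a kind and less RNA per cell cannot be told apart. No member passed an adjusted p of 0.05 with edgeR's quasi-likelihood test and Benjamini-Hochberg adjustment, and neither did any other gene (0% of all tested). At an unadjusted p under 0.05, 9 members were lower and 0 higher, or 17.3% lower against 4.54% of all genes. All actD libraries were below all DMSO libraries for 14 members (26.9%) and for 8.17% of all genes, and no member showed the reverse. DESeq2 on the same counts called 3 of the 52, UTP20, NAT10 and MYBBP1A, and 0.943% of all genes.

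Within the polymerase I machinery at 6 h, 8 of 12 members were lower, with a median of -0.05. POLR1A, the largest catalytic subunit of polymerase I, had 147, 158 and 125 CPM in the actD libraries and 197, 194 and 205 CPM in the DMSO libraries. The arms did not overlap, and its log2 fold change was -0.47 (SE 0.12). TCOF1, the treacle protein that links polymerase I to the early processing machinery, had 298, 308 and 264 CPM in the actD libraries and 365, 341 and 306 CPM in the DMSO libraries. Its ranges overlapped at 306 and 308 CPM. The other 10, which include the initiation factor RRN3, the SL1 subunits and UBTF, had log2 fold changes from -0.19 to 0.22.

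The snoRNP proteins had the narrowest range at 6 h, with 4 of 8 lower, a median of -0.02 and a range of -0.13 to 0.15. NHP2, a core protein of the H/ACA snoRNPs, had 83.8, 86.3 and 106.6 CPM in the actD libraries and 94.1, 84.7 and 70.9 CPM in the DMSO libraries. NOLC1, a chaperone that shuttles snoRNPs to the nucleolus, had 129, 120 and 120 CPM in the actD libraries and 122, 133 and 140 CPM in the DMSO libraries. Both sets of libraries overlapped.

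Among the 40S assembly factors 11 of 14 were lower at 6 h, with a median of -0.25, and 7 had no overlap between arms. UTP20, a very large scaffold of the small-subunit processome, had 77.1, 81.7 and 53.6 CPM in the actD libraries and 136, 149 and 129 CPM in the DMSO libraries, a log2 fold change of -0.96 (SE 0.17). NAT10, the acetyltransferase that modifies 18S ribosomal RNA, had 54, 60.2 and 41.4 CPM in the actD libraries and 89.6, 84.4 and 73.9 CPM in the DMSO libraries, a log2 fold change of -0.67 (SE 0.16). In both genes every actD library lay below every DMSO library. RRP12 (-0.75), UTP14A (-0.46) and DDX10 (-0.38) had unadjusted p-values of 0.00611, 0.0213 and 0.0281. The smallest adjusted p of the group, that of UTP20, was 0.185 (edgeR quasi-likelihood, Benjamini-Hochberg).

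The 60S factors gave a similar picture at 6 h, with 12 of 14 lower and a median of -0.20. NOP2, a methyltransferase of the large-subunit ribosomal RNA, had 73.4, 80.2 and 49.2 CPM in the actD libraries and 108.95, 99.7 and 95 CPM in the DMSO libraries. BOP1, which forms the PeBoW complex with PES1 and WDR12, had 53.5, 53.8 and 39.3 CPM in the actD libraries and 86.9, 77.2 and 55.2 CPM in the DMSO libraries. Neither overlapped between arms, although the lowest BOP1 library in DMSO, at 55.2 CPM, was close to the highest in actD, at 53.8 CPM. PES1 and WDR12, the partners of BOP1, had log2 fold changes of -0.21 and -0.01.

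Of the nucleolar proteins with several roles at 6 h, MYBBP1A had 45.7, 46.1 and 28.3 CPM in the actD libraries and 64.9, 72.8 and 61.9 CPM in the DMSO libraries, a log2 fold change of -0.73 (SE 0.19). DDX21, a helicase that binds both ribosomal DNA and snoRNAs, had 451, 494 and 333 CPM in the actD libraries and 496, 608 and 501 CPM in the DMSO libraries. The arms stood apart in both. NCL overlapped between arms (-0.39), as did NPM1 (0.13).

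**Figure D1:**
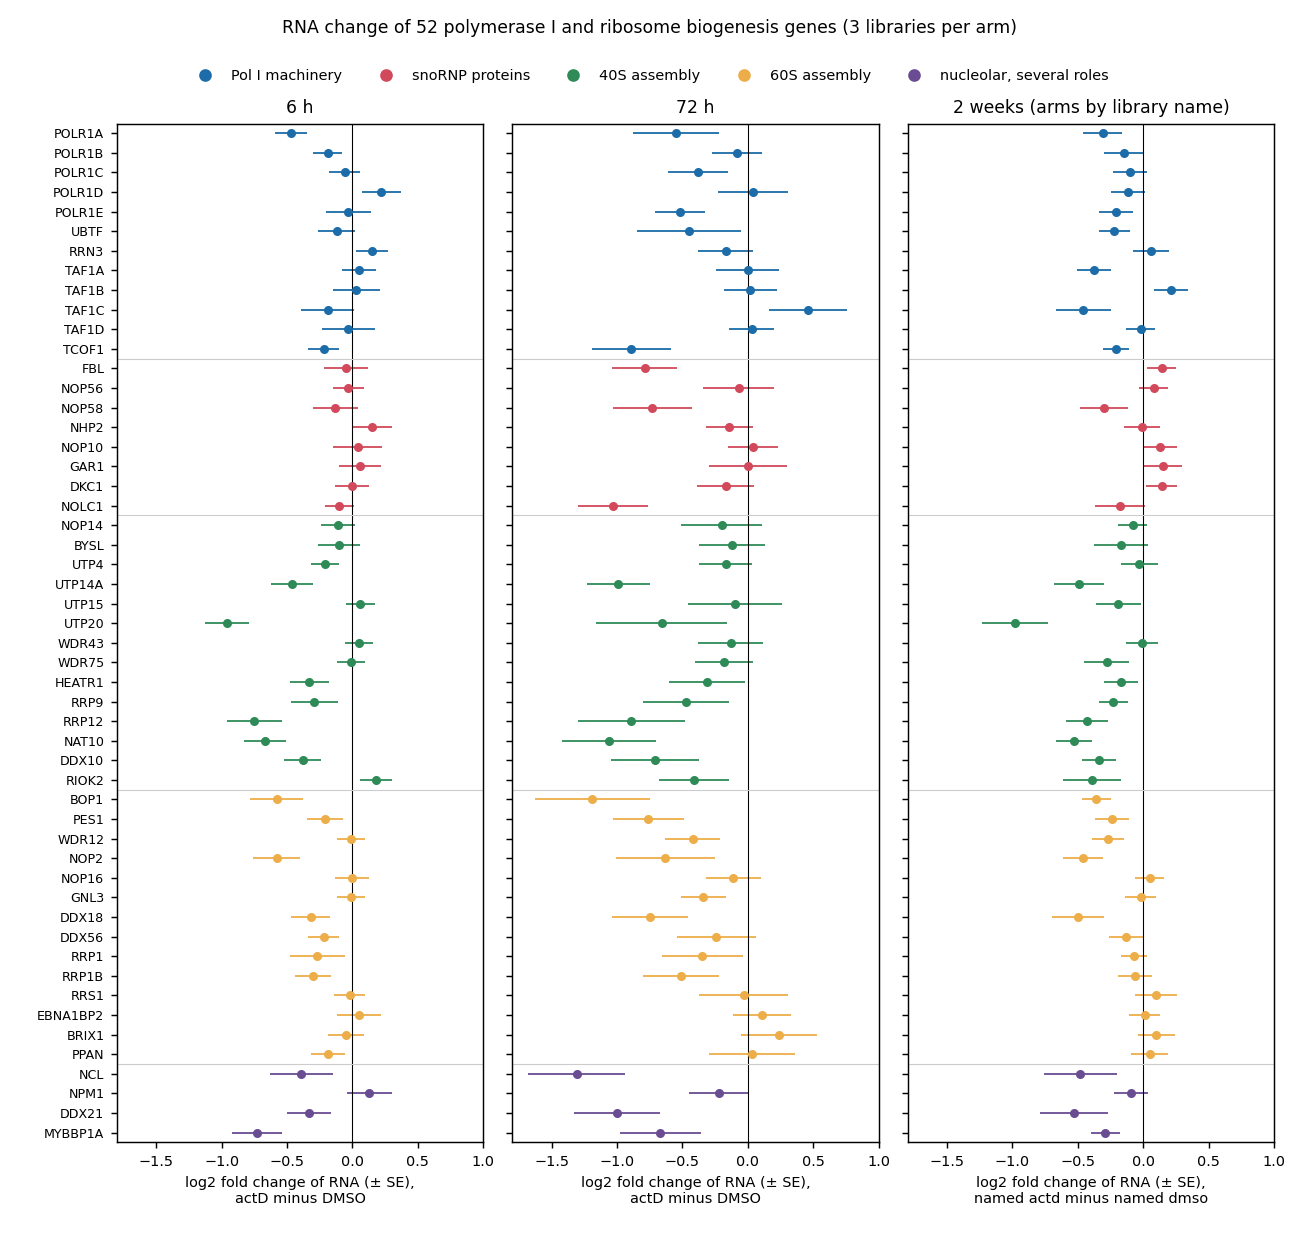
Log2 fold changes of RNA (horizontal axis; actD minus DMSO, and at 2 weeks named actd minus named dmso; bars are ± SE) for the 52 members, 1 per line, coloured by role, at 6 h, 72 h and 2 weeks. UTP20 stands lowest at 6 h (-0.96) and at 2 weeks (-0.98), NCL at 72 h (-1.31), and most snoRNP genes sit near 0 at 6 h.

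At 72 h the RNA differences were larger and the libraries of each arm also varied more. A negative log2 fold change was found for 44 of 52 members, with a median of -0.33, against 48.6% and 0.02 over the 21195 genes tested. No member passed the edgeR quasi-likelihood test after Benjamini-Hochberg adjustment, and 0.00472% of all genes did, a single gene outside the set. Unadjusted p-values under 0.05 were found for 12 members, all lower (23.1%), against 7.78% of all genes lower. The arms did not overlap for 8 members (15.4%), against 10.3% of all genes, so by this measure the share of members was only slightly above the background. DESeq2 called 3 of the 52, NCL, NOLC1 and UTP14A, and 3.26% of all genes. With all 18 RNA libraries in 1 model that shares the spread, 8 members passed, BOP1, FBL, NAT10, NCL, NOLC1, PES1, TCOF1 and UTP14A, as did 4.89% of all genes.

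The third DMSO library stood apart at this time, holding the lowest value of its arm in 44 of 52 members. Without it the median became -0.47 and 25 members had an unadjusted p under 0.05, as did 3660 of 21854 genes, with no member called after adjustment. The third actD library held the highest value of its arm in 35 members. Other omissions made the difference smaller. Without the second DMSO library the median was -0.17, with 5 members and 2895 of 21931 genes (13.2%) at an unadjusted p under 0.05. Without the first actD library it was -0.23, with 4 members and 1665 of 21891 genes (7.61%). In these omissions the share of members at that level was near or below that of all genes. Without the first DMSO or the second actD library the median was -0.26 each time. At that level 7 and 6 members then stood against 9.59% and 7.44% of all genes. Protein-coding genes took 54.3% to 62.4% of the counts in the actD libraries and 63.2% to 67.6% in the DMSO libraries (exact two-sided permutation p = 0.1, the smallest that 3 against 3 can give). The part of these shares in the result was not tested. With TMM scaling computed on protein-coding genes alone, the members' median was -0.27 with 41 of 52 lower.

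In the polymerase I machinery at 72 h, 8 of 12 were lower, with a median of -0.12. TCOF1 had 76.8, 92.3 and 86 CPM in the actD libraries and 156, 219 and 97.4 CPM in the DMSO libraries, a log2 fold change of -0.89 (SE 0.30). POLR1E, which forms a heterodimer on the polymerase that aids initiation and elongation, had 16.4, 18 and 19.8 CPM in the actD libraries and 24.1, 26.6 and 26.9 CPM in the DMSO libraries, a log2 fold change of -0.52 (SE 0.19). The arms were separate in both genes, and the third DMSO library of TCOF1 was nearest to the actD libraries. TAF1C had a positive log2 fold change (0.46), with 9.79 to 12 CPM under actD and 5.33 to 11 CPM under DMSO.

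The snoRNP group was uneven at 72 h. The box C/D proteins FBL, the methyltransferase, and NOP58, a core scaffold, had log2 fold changes of -0.79 and -0.73, and NOLC1 had -1.03. The H/ACA proteins NHP2, NOP10, GAR1 and DKC1 lay between -0.17 and 0.04, as did the box C/D protein NOP56 (-0.07). NOLC1 had 49.4, 54.3 and 62 CPM in the actD libraries and 110.4, 151 and 77.6 CPM in the DMSO libraries. FBL had 50.2, 55 and 36.7 CPM in the actD libraries and 78.5, 101 and 65 CPM in the DMSO libraries. Neither overlapped between arms.

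All 14 of the 40S factors were lower at 72 h, with a median of -0.36, yet only UTP14A was below every DMSO library. UTP14A, a scaffold of the small-subunit processome, had 23.2, 28.4 and 35.5 CPM in the actD libraries and 55.5, 70.1 and 47.2 CPM in the DMSO libraries, a log2 fold change of -0.99 (SE 0.24). NAT10 had 20.9, 23.2 and 26.4 CPM in the actD libraries and 54.4, 68.5 and 24.7 CPM in the DMSO libraries, a log2 fold change of -1.06 (SE 0.36). For NAT10 the third DMSO library lay inside the actD range. The same library held 33.5 CPM for UTP20, below all 3 actD libraries, and UTP20's log2 fold change was -0.66 (SE 0.50).

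Of the 60S factors 11 of 14 were lower at 72 h, with a median of -0.34. BOP1 had 8.44, 9.12 and 14.2 CPM in the actD libraries and 25.3, 36.4 and 10.7 CPM in the DMSO libraries, a log2 fold change of -1.19 (SE 0.44). PES1 had 24.9, 29.9 and 33.2 CPM in the actD libraries and 50.7, 65.2 and 33.7 CPM in the DMSO libraries, a log2 fold change of -0.76 (SE 0.27). The arms overlapped for BOP1, through the third DMSO library, and not for PES1. The third protein of the PeBoW complex, WDR12, had -0.42, and the helicase DDX18 had -0.75.

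NCL and DDX21 carried the largest RNA differences among the nucleolar proteins with several roles at 72 h. NCL had 144, 162 and 304 CPM in the actD libraries and 469, 692 and 353 CPM in the DMSO libraries, a log2 fold change of -1.31 (SE 0.37). DDX21 had 149, 162 and 287 CPM in the actD libraries and 435, 477 and 286 CPM in the DMSO libraries, a log2 fold change of -1.0 (SE 0.33). The arms were separate for NCL, and for DDX21 they touched, with 287 CPM in the third actD and 286 CPM in the third DMSO library. Adjusted p-values in the 10 genes described at 72 h ran from 0.257 to 0.338 (edgeR quasi-likelihood, Benjamini-Hochberg).

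**Figure D2:**
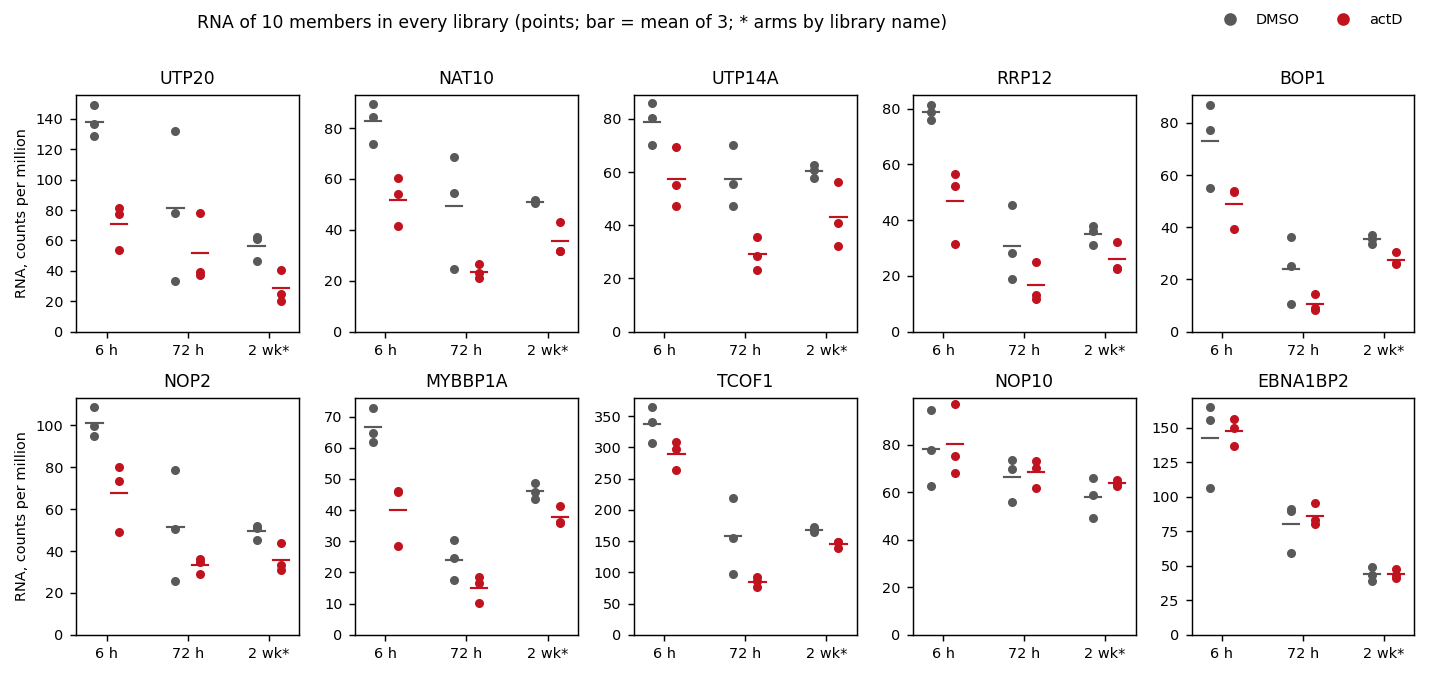
RNA in CPM (vertical axis, starting at 0) of 10 members in every library at 6 h, 72 h and 2 weeks, with DMSO in grey, actD in red and a bar at the mean of 3; at 2 weeks the arms follow the library names. The arms of UTP20, NAT10 and RRP12 are apart at 6 h and overlap at 72 h, where 1 DMSO library is low, and NOP10 and EBNA1BP2 overlap at each time.

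At 2 weeks the members were mostly lower in the named actd than in the named dmso libraries. Of 52, 40 had a negative log2 fold change, with a median of -0.17, against 53.2% and -0.02 of the 21137 genes tested. With the treatments taken from the titles 40 members would be higher and the median would read 0.17, so the direction under the drug cannot be stated for this comparison. The edgeR quasi-likelihood test with Benjamini-Hochberg adjustment called no member and no other gene (0%). Unadjusted p-values under 0.05 were found for 11 members, all lower (21.2%), against 4.93% of all genes lower. The arms did not overlap for 13 members (25%), against 7.83% of all genes. DESeq2 called 1 of the 52, UTP20, and 1.14% of all genes. The count of 11 fell to 3 without named actd library 2 (median -0.09) or 3 (-0.12), or without named dmso library 2 (-0.13). In these settings 6.22%, 4.79% and 5.94% of all genes had such a p in either direction, close to the share of the members. The count was 19 without named actd library 1 and 9 without named dmso library 1, against 10.7% and 7.07% of all genes. It was 7 without named dmso library 3 and 2 in the fit over 3 time points, against 13.2% and 5.66% of all genes. There the share of members was near or below that of all genes. Protein-coding genes took 52.9% to 59.3% of the counts in the named actd and 61.1% to 62.5% in the named dmso libraries (exact two-sided permutation p = 0.1, the smallest possible), and the part of this in the result was not tested. Scaling by library totals in place of TMM moved the median of all genes from -0.02 to -0.18 and that of the members from -0.17 to -0.32, with 50 of 52 lower.

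UTP20 had the largest difference at 2 weeks, as at 6 h, with 40.6, 20.4 and 24.7 CPM in the named actd libraries and 60.6, 62.1 and 46.3 CPM in the named dmso libraries and a log2 fold change of -0.98 (SE 0.25). NAT10 had 42.9, 31.8 and 31.5 CPM in the named actd libraries and 51.6, 50.5 and 51.3 CPM in the named dmso libraries, a log2 fold change of -0.53 (SE 0.14). The named actd values were below the named dmso values throughout in both. All 14 of the 40S factors were lower, with a median of -0.26 and a range from -0.98 to -0.01.

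Among the 60S factors 9 of 14 were lower, with a median of -0.07. BOP1 had 30.4, 26 and 26.4 CPM in the named actd libraries and 33.5, 37.2 and 35.4 CPM in the named dmso libraries. NOP2 had 43.6, 33.2 and 30.9 CPM in the named actd libraries and 51.7, 50.9 and 45.4 CPM in the named dmso libraries. Both were separate between the named sets, with log2 fold changes of -0.36 (SE 0.11) and -0.46 (SE 0.15). DDX18 (-0.50), WDR12 (-0.27) and RRP1 (-0.07) were also separate.

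In the polymerase I machinery, 10 of 12 were lower at 2 weeks, with a median of -0.18. TAF1A, a subunit of SL1, had 14.6, 11.6 and 12.4 CPM in the named actd libraries and 16.3, 18.2 and 15.8 CPM in the named dmso libraries. TAF1C had 18.4, 18.5 and 12.9 CPM in the named actd libraries and 26.4, 25.5 and 16.6 CPM in the named dmso libraries. The sets were separate for TAF1A and overlapped for TAF1C, for which the third library was low in both sets.

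The snoRNP proteins were the exception, with 3 of 8 lower and a median of 0.11. NOP58 had 60.1, 36.3 and 43.4 CPM in the named actd libraries and 61.3, 57.5 and 53.2 CPM in the named dmso libraries. FBL had 58.4, 57.3 and 58.5 CPM in the named actd libraries and 48.9, 50.5 and 59 CPM in the named dmso libraries. Both overlapped between the sets. Of the nucleolar proteins, MYBBP1A had 36.1, 35.9 and 41.3 CPM in the named actd libraries and 43.6, 45.7 and 48.8 CPM in the named dmso libraries, with no overlap. DDX21 had 233, 106.1 and 136 CPM in the named actd libraries and 217, 242 and 227 CPM in the named dmso libraries, with the first named actd library inside the named dmso range.

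At 6 h and 72 h, whose labels do not conflict, 34 members (65.4%) had lower RNA at both times, against 26.7% of the 20140 genes tested at both. The comparisons at the 3 times use separate libraries. UTP14A, NAT10 and BOP1 were lower at an unadjusted p under 0.05 at both 6 h and 72 h (5.77% of members, 1.64% of genes). With 2 weeks read by the library names, 31 members (59.6%) were lower at all 3 times, against 18.8% of 19404 genes, and UTP14A, NAT10 and BOP1 again had an unadjusted p under 0.05. With 2 weeks read by the titles, 3 members (5.77%), FBL, NOP56 and RRS1, were lower at all 3 times, against 8.38% of genes, and no member was so at an unadjusted p under 0.05. Whether the response at 72 h differed from that at 6 h was tested as the interaction of time and treatment. No member passed the edgeR quasi-likelihood test with Benjamini-Hochberg adjustment, while 0.0165% of 24251 genes did. Of the 52, 2 were lower and 0 higher at an unadjusted p under 0.05, against 5.18% of all genes lower. NOLC1 (log2 difference -0.96, SE 0.30) and FBL (-0.76, SE 0.31) had unadjusted p-values of 0.00709 and 0.0318 and adjusted p-values of 0.478 and 0.593. Without the third DMSO or the third actD library of 72 h, 12 and 10 members had an unadjusted p under 0.05 in place of 2, with 2656 and 2559 genes in place of 1944, and no member was called. DESeq2 called 161 genes in this comparison (0.828%) and none of the 52.

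The RNA log2 fold changes of the members were correlated with the length of the coding sequence, and less closely with that of the whole transcript. All 2-week values here are named actd minus named dmso, and each takes the opposite sign by the titles. Over the 52 members the Spearman correlation of the RNA log2 fold change with the number of codons was -0.71 at 6 h, -0.52 at 72 h and -0.60 at 2 weeks. By the titles the last would be 0.60, opposite to 6 h and 72 h. Over 14306 to 14837 protein-coding genes it was -0.22, -0.23 and -0.27, the last 0.27 by the titles, so at each time a weaker relation of the members' own sign ran through the transcriptome. These are correlations across genes measured in the same libraries, and genes are not independent replicates. The 19 members with at least 700 codons were all lower at 6 h, with a median of -0.38, and 18 of 19 were lower at 72 h, with a median of -0.66. At 2 weeks all 19 were lower in the named actd libraries, with a median of -0.34, which would be 19 higher and 0.34 by the titles. The 33 shorter members had medians of -0.02, -0.17 and -0.03 at the 3 times. Among all protein-coding genes of at least 700 codons the medians were -0.08, -0.19 and -0.10.

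Length and role were entangled. The 40S factors had a median of 800.5 codons, with UTP20 the longest member at 2785, and the snoRNP proteins a median of 417.5, with NOP10 the shortest at 64. Transcript length gave correlations of -0.53, -0.46 and -0.56 over the members and -0.06, -0.17 and -0.09 over protein-coding genes. GC content gave no common relation over the members, with -0.33, -0.09 and 0.05, and neither did the mean level, with -0.21, -0.15 and -0.09. Over protein-coding genes GC content gave -0.25, 0.07 and -0.07, the first of these near the value for codons at 6 h (-0.22). The boundary of 700 codons was chosen after the values were seen.

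**Figure D3:**
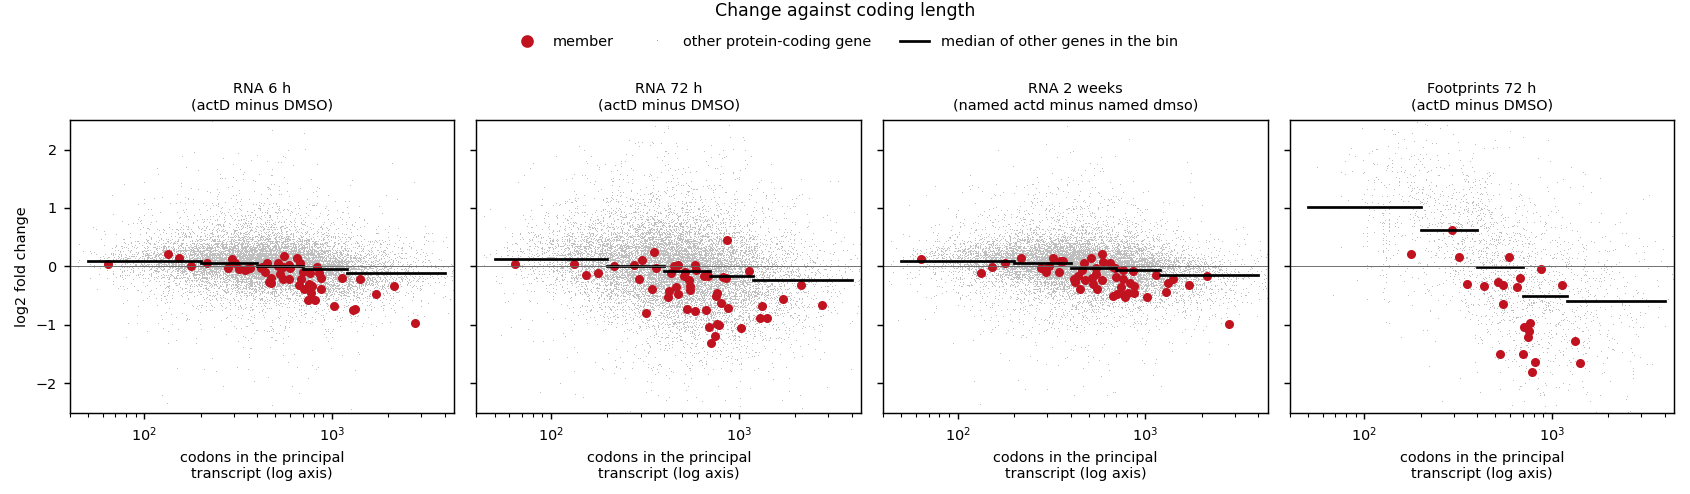
Log2 fold change (vertical axis; actD minus DMSO, and for RNA at 2 weeks named actd minus named dmso; values beyond the axis are not drawn) against the number of codons (log axis) for members (red) and other protein-coding genes (grey points, black bars at the median of each length bin), in RNA at 3 times and in footprints at 72 h. Members of at least 700 codons lie mostly below 0 and below the median bar of genes of like length, and the footprint panel has the steepest decline across all genes.

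The E-box and hosted snoRNA genes were compared in the same way, as descriptions. The 17 members with CACGTG had RNA medians of -0.21, -0.47 and -0.17 at 6 h, 72 h and 2 weeks (by the library names), and the 26 without it -0.03, -0.17 and -0.12. NOP10 and GAR1, printed above with their E-boxes, had 0.04 and 0.06 at 6 h. Within the bounds of 9 members, on the same strand, lie 34 snoRNA genes, among them TAF1D with 8, GNL3 with 6 and NOP56 with 5. Whether each lies in an intron was not checked. The RNA medians of these host genes were -0.03, -0.17 and -0.02, against -0.12, -0.35 and -0.19 for the 43 members that hold none. Host genes can share reads with their snoRNAs in total RNA, and the counting rules are not given in the sources used here.

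Further genes of the same pathway, from a list of 94 that does not overlap the 52, gave smaller values of the same sign at 6 h and 72 h. At 6 h 65 of 94 were lower, with a median of -0.08, and at 72 h 72 with a median of -0.26. At 2 weeks 57 were lower in the named actd libraries, with a median of -0.07, which would be 57 higher and 0.07 by the titles. The edgeR quasi-likelihood test with Benjamini-Hochberg adjustment called none of them in RNA. Unadjusted p-values under 0.05 were found for 8 lower and 2 higher at 6 h and 12 lower and 0 higher at 72 h. At 2 weeks they were found for 6 lower and 0 higher in the named actd libraries. Of all genes 4.54%, 7.78% and 4.93% were lower at this level. The arms did not overlap, with lower values in actD or named actd libraries, for 16%, 14.9% and 6.38% of the 94. Over all genes these shares were 8.17%, 10.3% and 7.83%, so at 2 weeks the 94 lay near the background. Other polymerase I genes, 10 in number, were split at 6 h with 5 lower and 5 higher.

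By edgeR's quasi-likelihood test, ribosome footprints at 72 h gave the only calls among the members after Benjamini-Hochberg adjustment. TCOF1 and DDX21 fell, by 1.66 and 1.81 on the log2 scale. Enough footprints for a test were present for 23 members, of which 19 were lower, with a median of -0.35 against 0.07 over the 2426 genes tested. Members with few footprints in both arms were left out by the filter, so the 23 do not stand for all 52. Of the 23, 2 passed (8.7%), against 3.79% of all genes, and DESeq2 called the same pair and 4.42% of all genes. At an unadjusted p under 0.05, 8 members were lower (34.8%) and 0 higher, against 13.1% of all genes lower. All actD libraries were below all DMSO libraries for 8 of the 23, against 16.2% of all genes tested. The actD libraries were mostly deeper, with 416131 to 784322 counts, against 152556 to 440974 in the DMSO libraries. Protein-coding genes took 30.7% to 40.4% of the counts in the actD libraries and 17.6% to 38.4% in the DMSO libraries. Both pairs of ranges overlapped, and the part of depth and coding share in the result was not tested.

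TCOF1 (chr5:150357629-150400308, GRCh38, plus strand) had 44.8, 46.2 and 44 CPM in the actD libraries and 127, 174 and 124 CPM in the DMSO libraries. These came from 30, 17 and 37 counts under actD and 56, 52 and 10 under DMSO. The actD libraries lay close together and all below the DMSO libraries, with a log2 fold change of -1.66 (SE 0.33) and an adjusted p of 0.0473 (edgeR quasi-likelihood, Benjamini-Hochberg). DDX21 (chr10:68956128-68985073, GRCh38, plus strand) had 23.9, 29.9 and 48.8 CPM in the actD libraries and 113, 121 and 137 CPM in the DMSO libraries. These came from 16, 11 and 41 counts under actD and 50, 36 and 11 under DMSO. The arms were again separate, with a log2 fold change of -1.81 (SE 0.38) and an adjusted p of 0.0473 by the same test.

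Both calls sat at the edge of the threshold. They were lost when libraries were scaled by their totals (adjusted p = 0.311 and 0.307), with a filter of at least 10 counts in total (0.175 and 0.174), and when any library other than actD library 3 was left out. A fit over all 18 footprint libraries kept TCOF1 (0.0433) and lost DDX21 (0.158). Leaving out DMSO library 1, 2 or 3 gave 0.224, 0.172 and 0.0517 for TCOF1 and 0.217, 0.172 and 0.0651 for DDX21. Leaving out actD library 1 or 2 gave 0.163 and 0.145 for TCOF1 and 0.17 and 0.157 for DDX21, all by the edgeR quasi-likelihood test with Benjamini-Hochberg adjustment. Without actD library 3 both held (0.0478 and 0.0409), and MYBBP1A, NOLC1, NOP2 and NOP58 passed as well. In that setting all genes at an unadjusted p under 0.05 rose from 663 to 959. The log2 fold changes stayed between -2.08 and -1.47 in all planned settings. In the third DMSO library 3 counts amount to 37.3 CPM.

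The next largest footprint differences had adjusted p-values of 0.0847 to 0.138 (edgeR quasi-likelihood, Benjamini-Hochberg). MYBBP1A had 14.9, 13.6 and 27.4 CPM in the actD libraries and 49.8, 43.6 and 49.8 CPM in the DMSO libraries. NOP2 had 19.4, 16.3 and 46.4 CPM in the actD libraries and 104, 97.2 and 49.8 CPM in the DMSO libraries. RRP1B, a nucleolar 60S factor, had 13.4, 24.5 and 23.8 CPM in the actD libraries and 36.2, 50.3 and 49.8 CPM in the DMSO libraries. In these 3 every actD library was below every DMSO library, with log2 fold changes of -1.28, -1.63 and -1.10. For NOP2 the gap was narrow, between 46.4 CPM in the third actD and 49.8 CPM in the third DMSO library. NOP58 had 28.4, 35.3 and 71.4 CPM in the actD libraries and 161, 131 and 87.1 CPM in the DMSO libraries, a log2 fold change of -1.50 (SE 0.46). BOP1 had 25.4, 19 and 47.6 CPM in the actD libraries and 58.8, 104 and 49.8 CPM in the DMSO libraries, a log2 fold change of -1.21 (SE 0.45). The arms were separate in both, narrowly for BOP1. In the third DMSO library 3 counts amount to 37.3 CPM, so the 49.8 CPM of MYBBP1A, NOP2, RRP1B and BOP1 rests on few counts. NOLC1 had 28.4, 32.6 and 66.6 CPM in the actD libraries and 136, 154 and 62.2 CPM in the DMSO libraries, and here the third DMSO library lay inside the actD range.

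**Figure D4:**
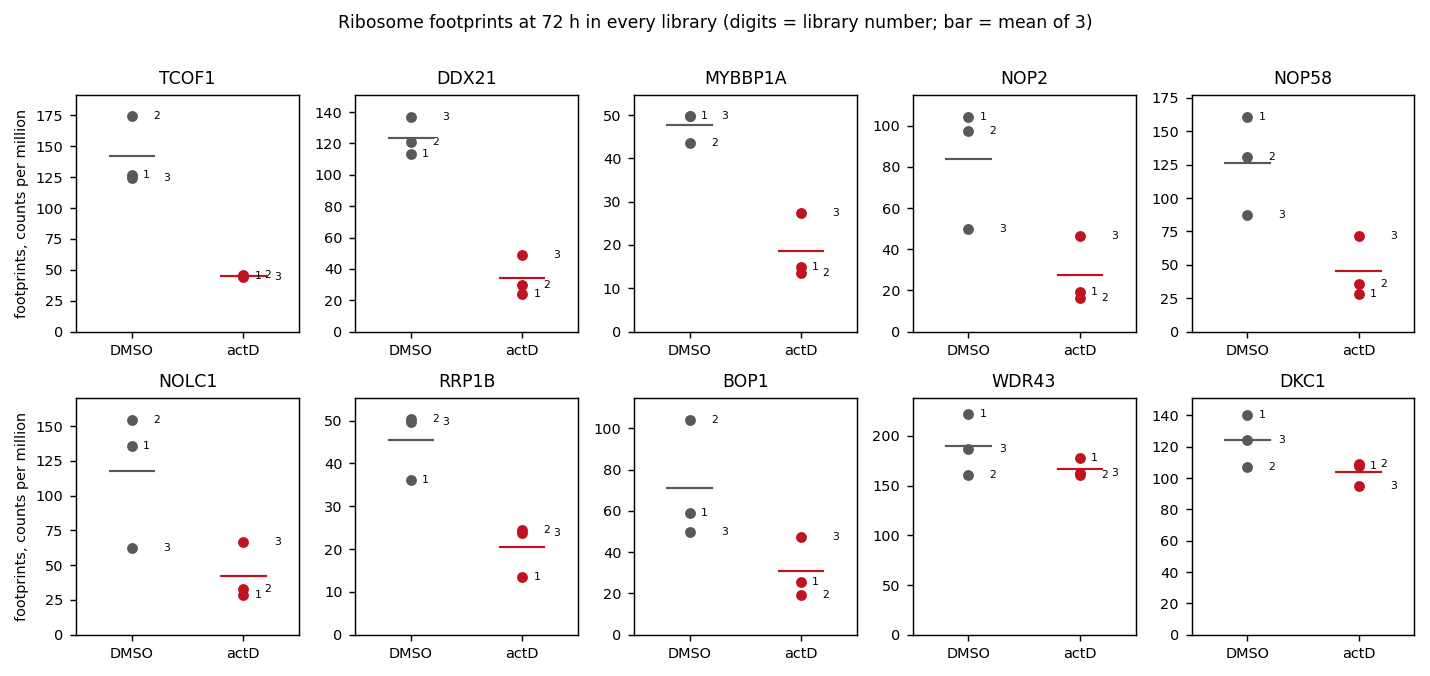
Ribosome footprints at 72 h in CPM (vertical axis, starting at 0) of 10 members in each library, with DMSO in grey, actD in red, bars at the mean of 3 and digits giving the library number. TCOF1 and DDX21 show a wide gap between the arms, actD library 3 lies highest for NOP2, NOP58 and NOLC1, and the arms of WDR43 and DKC1 overlap.

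RRN3 was the remaining tested member with separate arms at 72 h, by a narrow gap (-0.35). WDR43, a 40S factor, had 178, 160 and 163 CPM in the actD libraries and 222, 161 and 187 CPM in the DMSO libraries. DKC1, the pseudouridine synthase of H/ACA snoRNPs, had 107.5, 108.8 and 95.2 CPM in the actD libraries and 140, 107.3 and 124 CPM in the DMSO libraries. GNL3, the GTPase nucleostemin, had 88.1, 84.3 and 73.8 CPM in the actD libraries and 138, 83.8 and 74.6 CPM in the DMSO libraries. All 3 overlapped between the arms. BRIX1, a 60S factor, had 71.7, 76.1 and 59.5 CPM in the actD libraries and 92.7, 101 and 49.8 CPM in the DMSO libraries. NOP56 had 91.1, 95.2 and 206 CPM in the actD libraries and 131, 154 and 49.8 CPM in the DMSO libraries. UBTF, the architectural factor of ribosomal DNA chromatin, had 38.8, 103 and 47.6 CPM in the actD libraries and 63.3, 198 and 99.5 CPM in the DMSO libraries. UBTF averaged lower with wide spread (log2 fold change -0.97 (SE 0.56)), and the arms of BRIX1 and NOP56 overlapped. For NOP56 the third actD library was the highest of all 6 and the third DMSO library the lowest. NCL had 888, 726 and 2360 CPM in the actD libraries and 2303, 3497 and 2326 CPM in the DMSO libraries, and the third actD library lay inside the DMSO range. NPM1 had 466, 427 and 603 CPM in the actD libraries and 450, 469 and 24.9 CPM in the DMSO libraries, the last from 2 counts. BYSL, a 40S factor, had 14.9, 16.3 and 25 CPM in the actD libraries and 27.1, 30.2 and 0 CPM in the DMSO libraries, with 0 counts in the third DMSO library, where up to 3 counts could go unseen.

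The 29 members without enough footprints in any single table included UTP20, NAT10, RRP12 and UTP14A, the 40S factors with the largest RNA differences at 6 h. NAT10 was listed at 0 in all 6 footprint libraries of 72 h, and UTP20 had 2, 0 and 3 counts under actD and 0, 0 and 0 under DMSO. RRP12 had 0, 0 and 8 counts under actD and 7, 5 and 0 under DMSO. For NAT10, UTP20 and RRP12 a footprint difference was not detectable at this depth. UTP14A had 11.9, 10.9 and 9.52 CPM in the actD libraries and 27.1, 36.9 and 37.3 CPM in the DMSO libraries, from 8, 4 and 8 counts under actD and 12, 11 and 3 under DMSO, with every actD library below every DMSO library. It did not pass the filter, so it has no test here, and it and PES1 were called when both libraries numbered 3 were left out, a setting chosen after seeing the data. In that setting all genes at an unadjusted p under 0.05 rose from 663 to 1190. Among the 29, PES1 was also lower without overlap, and the polymerase I subunits POLR1C and POLR1D and the snoRNP protein NHP2 were higher without overlap. PES1 had 14, 9 and 12 counts under actD and 34, 17 and 2 under DMSO. POLR1D had 11, 9 and 26 counts under actD and 0, 3 and 0 under DMSO. POLR1C had at most 10 counts in any library and NHP2 at most 7, with 0 under DMSO for NHP2. None of these 4 was tested. How often other genes below the filter separate in this way was not counted, so these separations on few counts have no background beside them.

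Footprint differences at 72 h also followed coding length, across all genes. The Spearman correlation with codons was -0.61 over the 23 members and -0.59 over 2222 protein-coding genes. With transcript length it was -0.58 and -0.39. Genes of at least 700 codons had a median of -0.53, and 75% of the 813 were lower, while the 1409 shorter genes had a median of 0.43. The 10 members of that length had a median of -1.16 and all 10 were lower. TCOF1 has 1411 codons and DDX21 783. The part of length in these 2 calls was not tested.

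Among other genes of the pathway, 20 of 28 tested were lower in footprints at 72 h, with a median of -0.59. DDX24, an RNA helicase listed with the 60S factors, was called lower, with 23.9, 24.5 and 36.9 CPM in the actD libraries and 102, 178 and 112 CPM in the DMSO libraries. It had a log2 fold change of -2.18 (SE 0.39) and an adjusted p of 0.0473 (edgeR quasi-likelihood, Benjamini-Hochberg). It was the only one of the 28 to pass, against 3.79% of all genes, so the share of the 28 was near the background. Its adjusted p was also at the edge of the threshold, and its values in the other settings are not given here.

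Translational efficiency, the footprint value relative to RNA, was compared as the interaction of assay and treatment. At 72 h 17 of 23 members had lower efficiency, with a median of -0.38 against 0.03 over all genes. No member passed the edgeR quasi-likelihood test with Benjamini-Hochberg adjustment, against 0.433% of 2311 genes. Of the 23, 1 was lower and 0 higher at an unadjusted p under 0.05, against 5.76% of all genes lower and 9.17% higher. That was TCOF1, with a log2 difference of -0.96 (SE 0.40), unadjusted p 0.0334 and adjusted p 0.289. DDX21 had -0.97 (SE 0.49) and NOP2 -1.20 (SE 0.59). FBL, with lower RNA and similar footprints, had 0.74 (SE 0.48). Scaling by library totals moved the median of all genes to 0.36 and that of the members to -0.05, with 12 of 23 lower. The members lay below all genes by a similar amount under both scalings. Without the third actD or the third DMSO footprint library 7 and 6 members had an unadjusted p under 0.05, as did 547 and 545 genes in place of 345, with no member called. DESeq2 called no member here and 2.56% of all genes.

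**Figure D5:**
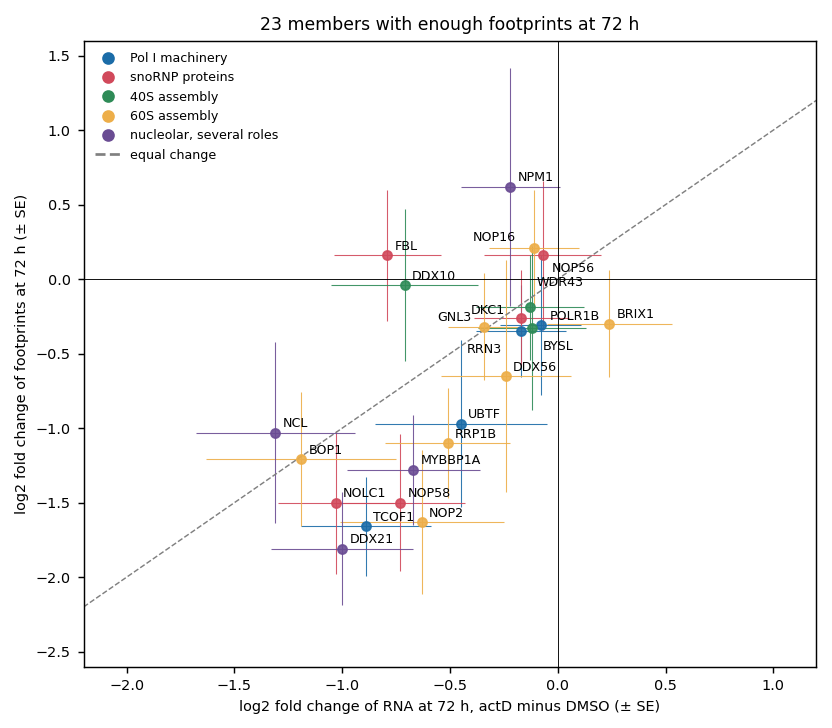
Log2 fold change of footprints (vertical axis) against that of RNA (horizontal axis) at 72 h, actD minus DMSO, for the 23 members with enough footprints, coloured by role; bars are ± SE and the dashed line marks equal change. TCOF1 (-0.89 in RNA, -1.66 in footprints), DDX21, NOP2 and NOP58 lie below the line, and FBL and NPM1 above it.

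At 6 h 14 members had enough footprints, 8 lower, with a median of -0.10 against 0.11 of the 1212 genes tested. The edgeR quasi-likelihood test with Benjamini-Hochberg adjustment called no member and no gene (0%). At an unadjusted p under 0.05, 1 member was lower, against 1.9% of all genes. DESeq2 also called no member, and 0.826% of all genes. The lower one was NOP2, with 16.5, 29.1 and 8.99 CPM in the actD libraries and 45.9, 42.9 and 47.2 CPM in the DMSO libraries, where the arms were separate (log2 fold change -1.32 (SE 0.46)). TCOF1 had 10.3, 15.9 and 31.5 CPM in the actD libraries and 47.9, 40.3 and 28.9 CPM in the DMSO libraries. DDX21 had 31, 0 and 36 CPM in the actD libraries and 59.1, 40.3 and 42 CPM in the DMSO libraries, with 0 counts in the second actD library, in which 3 counts amount to 7.94 CPM. The actD values of DDX21 were the lower ones, and those of TCOF1 overlapped with DMSO.

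The other members described at 6 h overlapped between the arms. UBTF had 24.8, 42.4 and 24.7 CPM in the actD libraries and 52, 20.8 and 13.1 CPM in the DMSO libraries. NOP56 had 18.6, 50.3 and 33.7 CPM in the actD libraries and 27.5, 36.4 and 52.5 CPM in the DMSO libraries. NOP58 had 37.2, 63.5 and 40.5 CPM in the actD libraries and 80.6, 81.8 and 39.3 CPM in the DMSO libraries. These 3 showed no ordering of the arms. DKC1 had 37.2, 52.9 and 47.2 CPM in the actD libraries and 45.9, 48 and 23.6 CPM in the DMSO libraries. NOLC1 had 35.1, 55.6 and 31.5 CPM in the actD libraries and 51, 28.6 and 44.6 CPM in the DMSO libraries. WDR43 had 74.4, 68.8 and 98.9 CPM in the actD libraries and 79.5, 55.8 and 68.2 CPM in the DMSO libraries. Their log2 fold changes lay between -0.03 and 0.25. GNL3 had 43.4, 42.4 and 51.7 CPM in the actD libraries and 36.7, 36.4 and 44.6 CPM in the DMSO libraries. BRIX1 had 22.7, 29.1 and 47.2 CPM in the actD libraries and 30.6, 24.7 and 26.2 CPM in the DMSO libraries. NCL had 405, 635 and 589 CPM in the actD libraries and 1311, 743 and 551 CPM in the DMSO libraries. The first DMSO library of NCL was the highest. NPM1 had 12.4, 5.29 and 24.7 CPM in the actD libraries and 20.4, 81.8 and 15.7 CPM in the DMSO libraries, from 2 to 63 counts. Scaling by library totals moved the median of all genes from 0.11 to -0.61 and of the members from -0.10 to -0.94, all 14 then being lower. Over the same 14 members, leaving out 1 library gave medians from -0.46 (without the second actD library) to 0.09 (without the first), and without the second DMSO library -0.34. With the members that newly passed the filter included, the median without the third DMSO library was -0.75 over 19, against -0.12 over the 14. Efficiency at 6 h gave no call among members or genes (0% of 951). Of the 14, 1 was lower at an unadjusted p under 0.05, against 2.31% of all genes, and this was TCOF1 (0.0238, log2 difference -0.87, SE 0.33). DESeq2 called no member in efficiency at 6 h, and 0.106% of all genes.

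At 2 weeks, where the footprint labels do not conflict, the members showed no common direction. Of 14 tested, 7 were lower, with a median of 0.01 against 0.02 over 1598 genes. The edgeR quasi-likelihood test with Benjamini-Hochberg adjustment called no member and no gene (0%). At an unadjusted p under 0.05, 1 was lower, against 4.51% of all genes. DESeq2 also called no member. The lower one was again NOP2, with 10.3, 7.98 and 8.75 CPM in the actD libraries and 20.1, 16.2 and 12.1 CPM in the DMSO libraries, separate between the arms (log2 fold change -0.83 (SE 0.33)). TCOF1 had 27.3, 19.4 and 17.5 CPM in the actD libraries and 24.8, 20.7 and 13.6 CPM in the DMSO libraries. DDX21 had 22.8, 7.98 and 5.83 CPM in the actD libraries and 23.2, 21.6 and 22.6 CPM in the DMSO libraries. TCOF1 overlapped, and DDX21 was lower in 2 of 3 actD libraries.

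The remaining members described in full overlapped between the arms at 2 weeks. UBTF had 42.1, 19.4 and 24.8 CPM in the actD libraries and 48, 31.5 and 19.6 CPM in the DMSO libraries. NOP56 had 26.2, 43.3 and 26.2 CPM in the actD libraries and 29.4, 28.8 and 22.6 CPM in the DMSO libraries. NOP58 had 27.3, 12.5 and 11.7 CPM in the actD libraries and 18.6, 30.6 and 31.7 CPM in the DMSO libraries. In NOP58 the first actD library lay inside the DMSO range and the other two below it. DKC1 had 26.2, 23.9 and 21.9 CPM in the actD libraries and 26.3, 22.5 and 18.1 CPM in the DMSO libraries. NOLC1 had 28.5, 14.8 and 24.8 CPM in the actD libraries and 27.9, 19.8 and 22.6 CPM in the DMSO libraries. GNL3 had 25.1, 23.9 and 21.9 CPM in the actD libraries and 21.7, 20.7 and 22.6 CPM in the DMSO libraries. The log2 fold changes of these 3 lay between -0.03 and 0.13. BRIX1 had 15.9, 21.7 and 24.8 CPM in the actD libraries and 12.4, 15.3 and 33.2 CPM in the DMSO libraries. NCL had 529, 187 and 284 CPM in the actD libraries and 612, 430 and 484 CPM in the DMSO libraries. NPM1 had 43.3, 4.56 and 72.9 CPM in the actD libraries and 4.65, 34.2 and 75.5 CPM in the DMSO libraries. NPM1 spread over more than 10 times within each arm, and its arms overlapped fully. WDR43 had 36.5, 44.5 and 51 CPM in the actD libraries and 29.4, 29.7 and 37.7 CPM in the DMSO libraries, with 2 actD libraries above the DMSO range. Efficiency at 2 weeks gave no call (0% of 1441 genes), with 0 members at an unadjusted p under 0.05 (2.43% of all genes lower and 2.71% higher) and 0 called by DESeq2 (0.0696% of all genes). Its RNA side carries the doubt about the labels. With the RNA libraries assigned by their titles, 3 of the 14 members had an unadjusted p under 0.05, against 20.7% of all genes, the members' median was -0.16 and their smallest adjusted p was 0.0716 (edgeR quasi-likelihood, Benjamini-Hochberg).

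The footprint response was also compared between times. Here the filter was applied to the joined libraries of both times. It let in members with too few counts in every single table, POLR1A among them, while 23 members passed in at least 1 single table. For 2 weeks against 72 h, 26 of 32 members had a positive difference, with a median of 0.40 against -0.12 over 3760 genes. These counts thus rest in part on members with very few footprints. No member passed the edgeR quasi-likelihood test with Benjamini-Hochberg adjustment, and 0.0532% of genes did. Of the 32, 2 were higher and 0 lower at an unadjusted p under 0.05, against 2.98% of all genes higher and 4.52% lower, and DESeq2 called none and 0.266% of all genes. TCOF1, the member with the smallest p, had a log2 difference of 1.65 (SE 0.46), unadjusted p 0.00358 and adjusted p 0.366. For 72 h against 6 h, 16 of 28 members had a negative difference, with a median of -0.30 against 0.22, and no gene was called (0% of 3012). Of the 28, 3 had a positive difference with an unadjusted p under 0.05, against 4.52% of all genes, and DESeq2 called none and 0.366% of all genes. These were BYSL, FBL and POLR1A, each with 0 counts in all 3 actD libraries of 6 h, so their fitted differences depend on the prior count and are not given. Leaving out 1 library gave medians from -0.40 to 0.04 over the same 28, with those of all genes between 0.18 and 0.66. Library totals in place of TMM moved the median of all genes from 0.22 to 0.82 and that of the members to 0.45, with 7 of 28 negative. The members' median was below that of all genes under both scalings. The 2 comparisons share the 72 h libraries.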

How the data were processed

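Total RNA and ribosome footprints were measured in 36 libraries of WiT49 cells, and libraries were grouped by the submitters' labels, or, for 2-week RNA, by the library names. The deposited tables, made by the authors, hold whole-number estimated counts (expected counts) per gene. HISAT2, StringTie and the genome build hg38 are named in the submitters' processing notes. Annotation, strand and multi-mapping are not given in the sources used here. Small values of the RNA tables for 6 h and 2 weeks fall at multiples of about 2.67; the origin of this step is not given in the sources used here, and dividing by it was an alternative.

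Identifiers without version were matched to GENCODE release 29 (GRCh38). Main tests across genes ran in edgeR 4.0.16 under R 4.3.3: TMM scaling, filterByExpr, quasi-likelihood test, two-sided, Benjamini-Hochberg adjustment over all genes of a comparison, each table alone, with interactions fitted on joined tables. Standard errors are the log2 fold change over the root of the F statistic. DESeq2 1.42.0, other scalings and filters, a replicate block and leaving out each library were alternatives. A count of 0 allows up to 3 counts; floors cover counting error only, since PCR copies are not independent. The scripts were tested on simulated data.

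Described in full are members called in any comparison, the 2 members with the smallest p in each role group in each RNA comparison and in footprints at 72 h, and those passing the filter in all 3 footprint tables; others are given by range and count. The members, roles and lists were chosen with earlier results of these data known. Of the listed other pathway genes 1 was not matched. RefSeq promoter windows gave 43 of 52 members. To see whether equal numbers pair libraries, deviations from the group means were correlated; in no comparison did every pair exceed 0.1, so the numbers were not taken as pairs. Ribosomal RNA was not analysed here. A marker gene of the tumor and nephron progenitor list is not reported here.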

Additional observations from a re-analysis of the deposited data

How the results depend on the processing

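Calls of members changed with the tool and the scaling, while no median of a single-time RNA comparison at 6 h or 72 h changed sign. DESeq2 called 3, 3 and 1 members in RNA at 6 h, 72 h and 2 weeks, where edgeR called 0. A fit over the 3 time points called 8 members in 72 h RNA, with 4.89% of all genes, and 1 in 72 h footprints. In 72 h footprints 819 genes then had an unadjusted p under 0.05, against 663 in the main fit. The fit over 3 time points gave medians of -0.72 and -0.65 in footprints at 6 h and 72 h over the 33 members it tested. Over the 14 and 23 members of the main comparisons they were -0.12 (main -0.10) and -0.16 (main -0.35). In footprints at 72 h library totals and a filter of at least 10 counts each left 0 calls; leaving out 1 library gave 0 to 6 calls and medians from -1.18 to -0.42 (-0.94 without DMSO library 3, -0.64 without actD library 2), or -0.69 to -0.30 over the same 23 members. The 6 calls came without actD library 3, where all genes at an unadjusted p under 0.05 rose from 663 to 959. Library totals gave medians of -0.32 in RNA at 2 weeks, -0.94 in footprints at 6 h, -0.75 and 0.23 in efficiency at 6 h and 2 weeks, and 0.45 for the footprint difference between 72 h and 6 h. A filter of at least 10 counts gave -0.78 in footprints at 6 h, -0.73 in efficiency at 6 h and 0.46 for that difference, against -0.19, -0.14 and 0.00 over the members tested in the main comparisons. Leaving out 1 library in footprints at 6 h gave medians from -0.75 (without DMSO library 3) to 0.07 (without actD library 1), with -0.64 and -0.41 without actD libraries 2 and 3; over the same 14 members the range was -0.46 to 0.09. A changed filter, an omission and the fit over 3 time points changed which members were tested, and the values over the same members show how much of each move came with that; otherwise the cause was not tested. Leaving out 1 library gave RNA medians of -0.47 to -0.17 at 72 h and -0.21 to -0.09 at 2 weeks. Leaving out both libraries numbered 3 at 72 h was chosen after seeing that they lay nearest the other arm; it gave 7 calls and a median of -0.59 in RNA and 12 calls and -1.17 in footprints (-0.80 over the same 23). Treatments by the titles gave a median of 0.17 in RNA at 2 weeks and reversed TAF1A (0.38), TAF1C (0.46), NOP58 (0.30), FBL (-0.14), UTP20 (0.98), NAT10 (0.53), BOP1 (0.36), NOP2 (0.46), MYBBP1A (0.29) and DDX21 (0.53). Direction and call were kept in 330 other results and settings of the counts and medians. Outside footprints at 72 h the main test called no member, so a kept call there means only that 0 stayed 0. FBL at 2 weeks was -0.01 with library totals, and WDR43 in footprints at 72 h was 0.01 in the fit over 3 time points.

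With the replicate number as a block, footprints at 72 h had 0 members called (adjusted p = 0.142 for TCOF1 and for DDX21, edgeR quasi-likelihood), and no other call of a member changed. The numbers were not taken as pairs: same-numbered libraries correlated at 0.07, 0.26 and 0.16 in RNA at 72 h, where 6 of 6 libraries correlated best with their own number, a hint from the data and not from the design.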
